A study of Mus musculus with 4 samples.

Results

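Lymphatic endothelial cells (ECs) line the vessels that drain fluid and immune cells from tissues, and 7 genes used to recognise them were examined in sorted ECs of the dura mater and the brain. The genes were Prox1, Lyve1, Stab1, Stab2, Pdpn, Mmrn1 and Reln, taken by symbol from the 23282 entries of the count tables, in which each of the 7 stands on its own line. The data were 2 libraries of dura mater ECs and 2 of brain parenchyma ECs, from C57BL/6J mice at 8 weeks of age, and the labels name no treatment, transgene, sex or number of mice. The supplement of the study states that its mice were male. For the sort, the methods of the study name antibodies against CD31, CD45 and TER-119, after magnetic enrichment on CD31 for the brain alone. The gate itself is not spelled out, and no antibody to a lymphatic marker such as podoplanin is listed for it. CD31 is carried by blood and lymphatic ECs alike, so the sort could hold both.

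Lymphatic identity is set by the transcription factor PROX1, which is switched on in veins during development with the help of SOX18 and COUP-TFII (Nr2f2), and growth of the vessels is driven by VEGF-C through VEGFR3 (Flt4). The dura mater holds lymphatic vessels along its venous sinuses, whereas the brain parenchyma is held to lack them. None of the 7 genes is used by lymphatic ECs alone. LYVE1 and stabilin-1 are also found on tissue macrophages, stabilin-2 and LYVE1 on sinusoidal ECs, podoplanin on fibroblasts, choroid plexus and bone cells, multimerin-1 in platelets, and PROX1 and reelin in neurons.

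Libraries held 13518973 to 16096203 counts, and of the 9347 genes tested with edgeR 57 (0.610%) passed at an adjusted p under 0.05, 40 of them (0.428%) higher in dura mater ECs. Replicates of a tissue lay far apart, with a common biological coefficient of variation of 1.39, and dura mater replicate 2 had more symbols with counts (11803) than the other libraries (9350 to 10246). Pecam1 (CD31) and Cdh5 (VE-cadherin) were counted in every library, at 579 to 1447 and 325 to 591 CPM (counts scaled to a common library size with the TMM factors of edgeR), and Ptprc (CD45) had 1 to 4 counts. Whether replicates came from separate mice is not stated, so p-values measure the spread between these libraries. In sorted bulk samples, fewer cells of a type and less RNA per cell cannot be told apart.

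Of the 7 lymphatic markers, 4 were counted in both dura mater libraries and at 0 to 2 counts in the brain libraries, and these were Lyve1, Prox1, Mmrn1 and Stab1. Both dura mater libraries lay above both brain libraries for these 4, as they did for 26.2% of the 9347 genes tested. The other 3, Pdpn, Reln and Stab2, reached more than 7 counts in dura mater replicate 2 alone. Summed over the 7 genes, brain ECs held 0.276 and 0.680 CPM and dura mater ECs 222 and 299 CPM.

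**Figure D1:**
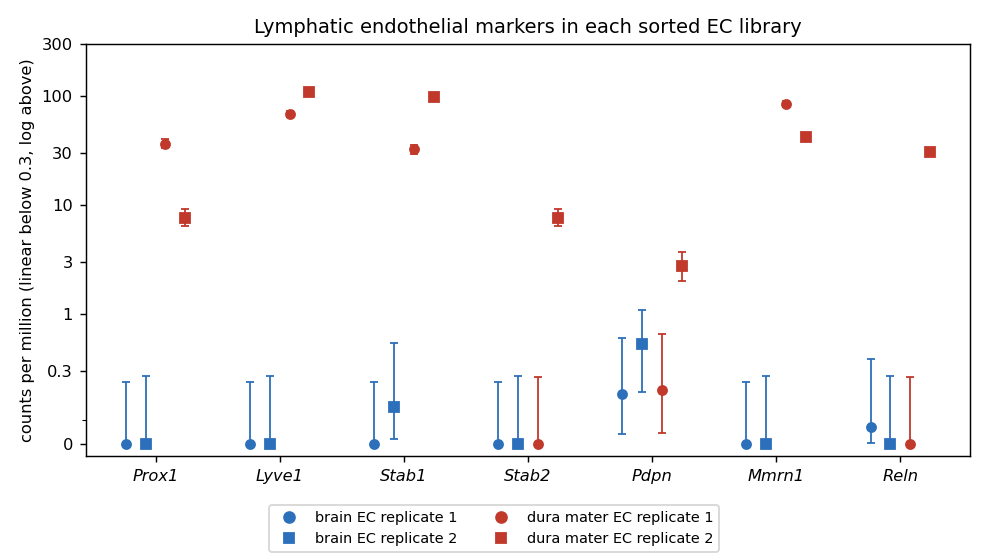
CPM (linear below 0.3, log above) of the 7 lymphatic markers in the 2 brain EC libraries (blue) and the 2 dura mater EC libraries (red), with exact 95% Poisson intervals of the counts. Prox1, Lyve1, Stab1 and Mmrn1 stood between 7.66 and 109 CPM in both dura mater libraries and at or below 0.151 CPM in brain, while Stab2, Pdpn and Reln exceeded 1 CPM in dura mater replicate 2 alone.

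Prox1 (chromosome 1, 190118035 to 190170714, minus strand, GRCm38), the transcription factor that specifies lymphatic fate, had 0 counts in each brain library, compared with 492 and 125 in dura mater replicates 1 and 2. These counts were 36.7 CPM (exact 95% Poisson interval 33.5 to 40.1) and 7.66 CPM (6.37 to 9.12), so the groups did not overlap, but the dura mater replicates lay apart by far more than counting error. A count of 0 was taken to allow up to 3 counts, or 0.207 and 0.227 CPM, in the brain libraries. The exact intervals allowed slightly more, up to 0.2545 and 0.2789 CPM. The mean dura mater CPM of Prox1, 22.2, was 102-fold the mean of the limit of 3 counts. That is a ratio of means and not a lower bound, since dura mater replicate 2 lay well below the mean. Intervals and limits cover counting error alone, and not the spread between replicates, in which a gene could be at 0 in 1 library and high in the other. The fitted log2 fold change, which for a gene at 0 depends on the prior count of 2, was 7.32 (SE 2.81), and at an adjusted p of 0.466 Prox1 did not pass in edgeR.

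Receptors for large extracellular ligands came next. Lyve1 (chromosome 7, 110850607 to 110863239, minus strand) encodes a receptor for hyaluronan. Lyve1 had 0 counts in each brain library, compared with 911 and 1776 in dura mater replicates 1 and 2. At 67.9 CPM (63.6 to 72.5) and 109 CPM (104 to 114), its dura mater mean was 407-fold the limit of 3 counts in brain (log2 fold change 9.31 ± 1.84, SE, adjusted p 0.183 in edgeR). Its dura mater replicates were closer to each other than those of Prox1, and the second replicate was the higher here, whereas for Prox1 it was the lower.

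Stab1 (chromosome 14, 31139013 to 31168641, minus strand) encodes stabilin-1, a scavenger receptor. It had 0 and 2 counts in brain replicates 1 and 2, compared with 437 and 1614 in the dura mater, or 32.6 CPM (29.6 to 35.8) and 98.9 CPM (94.1 to 104). The ratio of summed counts per library size was 956, with an exact 95% counting interval of 264 to 7900, and the fit gave a log2 fold change of 8.26 ± 2.54 (SE, adjusted p 0.384 in edgeR). Stab2 (chromosome 10, 86841198 to 87008025, minus strand), the related receptor best known from liver sinusoids, had 0 counts in each brain library and in dura mater replicate 1, and 125 counts (7.66 CPM, 6.37 to 9.12) in dura mater replicate 2. The groups therefore met at 0, and Stab2 did not pass the filter on low counts.

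Pdpn (chromosome 4, 143267431 to 143299564, minus strand) encodes podoplanin, the ligand of the platelet receptor CLEC-2, which keeps lymphatic vessels apart from blood vessels. It was near the counting limit in 3 of the 4 libraries, with 3 and 7 counts in brain ECs, 3 in dura mater replicate 1 and 45 (2.76 CPM, 2.01 to 3.69) in replicate 2. The groups overlapped. Over the summed counts the ratio was 4.48 (exact 95% counting interval 2.24 to 9.92), which rests on dura mater replicate 2, and the gene was not tested.

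Secreted proteins closed the group. Mmrn1 (chromosome 6, 60924976 to 60989378, plus strand), a multimeric adhesive protein that binds factor V, had 0 counts in each brain library, compared with 1132 and 690 in dura mater replicates 1 and 2. At 84.4 CPM (79.6 to 89.5) and 42.3 CPM (39.2 to 45.5), its dura mater mean was 292-fold the limit of 3 counts in brain (log2 fold change 8.83 ± 2.20, SE, adjusted p 0.291 in edgeR). Reln (chromosome 5, 21884454 to 22344702, minus strand), which encodes the matrix protein reelin, had 1 and 0 counts in brain ECs, 0 in dura mater replicate 1 and 502 (30.7 CPM, 28.1 to 33.6) in replicate 2. The groups of Reln overlapped, and it was not tested.

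Of the 7 markers, 4 passed the filter on low counts. In edgeR, 0 of these 4 passed over all genes (0.428% of all genes did so on the higher side), and all 4 had an unadjusted p under 0.05, as did 7.04% of all genes on the higher side. A gene at 0 in brain enters the test through its dura mater counts, so the closer comparison is with the 303 tested genes with 64 or more counts in each dura mater library and 0 in each brain library. Of those, 215 (71.0%) had an unadjusted p under 0.05 and 4 (1.32%) passed the adjustment. The call depended on the test. DESeq2 passed these 4, with adjusted p of 7.7e-08 for Lyve1, 3.2e-06 for Mmrn1, 2.5e-05 for Stab1 and 0.0101 for Prox1, beside 8.67% of the genes for which it gave an adjusted p. With no filter on low counts edgeR passed Lyve1 (adjusted p 0.00281) and Mmrn1 (0.0468). Without brain replicate 1 it passed Lyve1, Mmrn1 and Stab1 (adjusted p 0.000104, 0.00555 and 0.0284), and without brain replicate 2 the same 3 genes (0.0001, 0.00614 and 0.0054). In both fits without a brain library the spread came from the dura mater pair alone. Over the alternatives the highest adjusted p was 0.626 for Lyve1, 0.771 for Mmrn1, 0.799 for Stab1 and 0.995 for Prox1, and the lowest was that of DESeq2.

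The dura mater replicates did not rank the 4 markers alike. From replicate 1 to replicate 2 the log2 ratio of CPM was −2.26 for Prox1 and −0.998 for Mmrn1, but 0.68 for Lyve1 and 1.60 for Stab1. Among 6669 genes with 64 or more counts in both dura mater libraries, the median of this ratio was −0.17 and the 10th to 90th percentiles ran from −1.70 to 1.32. Prox1 lay below that range and Stab1 above it, while Lyve1 and Mmrn1 lay within it. Ccl21a, a chemokine of lymphatic ECs, was at 1.65, and Itga9, an integrin subunit of lymphatic valves, at −0.59. Flt4, Pecam1 and Cdh5 were at 0.47, 0.43 and −0.41, within the range as well.

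**Figure D2:**
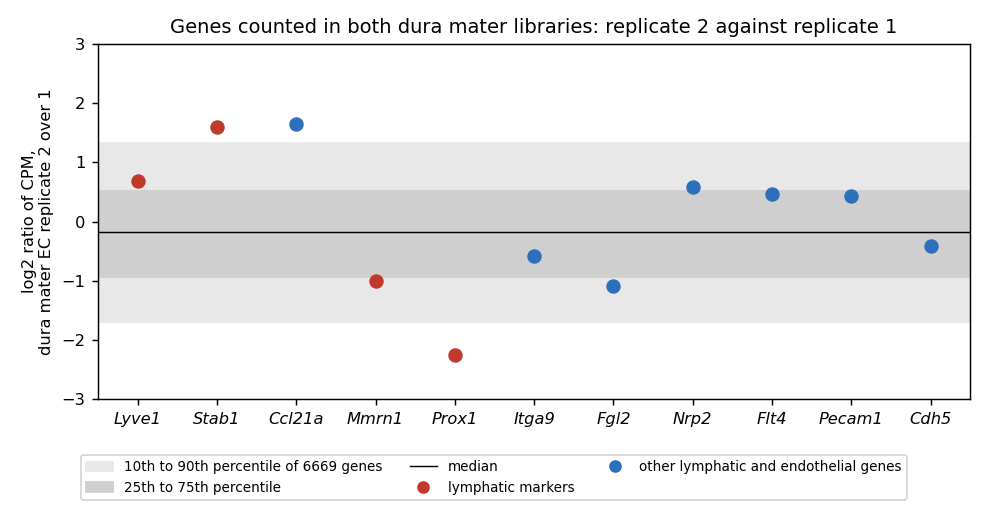
Log2 ratio of CPM in dura mater EC replicate 2 over replicate 1 for the 4 lymphatic markers counted in both libraries (red) and for other lymphatic and endothelial genes (blue). Grey bands give the 10th to 90th and the 25th to 75th percentiles of 6669 genes and the line their median of −0.17, and the markers spread from −2.26 (Prox1) to 1.60 (Stab1).

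Reln and Stab2 shared a pattern with many genes. They had 64 or more counts in dura mater replicate 2 and 7 or fewer in each other library, as had 1208 of the 23282 symbols (5.19%). Among them were the lymphatic valve transcription factor Foxc2 (0, 0, 0 and 143 counts in brain replicates 1 and 2 and dura mater replicates 1 and 2), the chemokine scavenging receptor Ackr2 (0, 0, 0 and 167) and Mrc1, the mannose receptor of macrophages and lymphatic ECs (5, 1, 1 and 172). All 3 were picked after their values were seen.

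Reads of overlapping genes can move between neighbours, because the use of strand in the counting is not stated. In the GENCODE M21 annotation, exons of genes on the other strand overlap 1.59% of the exon length of Prox1 (Prox1os), 1.09% of Stab1 (Nt5dc2), 1.61% of Stab2 (Gm16268) and 1.04% of Reln (Gm10475), and none overlaps an exon of Lyve1, Mmrn1 or Pdpn. Nt5dc2 had 0 and 2 counts in brain replicates 1 and 2 and 990 and 1516 in dura mater replicates 1 and 2. The counts of Stab1 are uncertain to an extent not known, since a share of exon length need not be the share of reads. The other 3 neighbours have no line under those symbols in the tables used here.

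The genes nearest to each marker over the 4 libraries were found by the Euclidean distance between log2 CPM values centred on each gene's mean (prior count 2). Meox1, Esm1 and Fscn1 were nearest to Lyve1 (0.0920, 0.216 and 0.368), and Meox1 had 0, 0, 944 and 1683 counts in brain replicates 1 and 2 and dura mater replicates 1 and 2. Txlnb, Pgm1 and Apoa1 were nearest to Prox1 (0.0574, 0.0821 and 0.0993), Gar1, Tsc1 and Gprc5a to Mmrn1 (0.0766, 0.170 and 0.229), and Selm, Arc and Anpep to Stab1 (0.328, 0.378 and 0.614). Such likeness was common with 4 libraries, since 197 tested genes lay within a distance of 1 of Prox1, 84 of Mmrn1, 40 of Lyve1 and 23 of Stab1.

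Promoters are shown for markers that were counted in both dura mater libraries and at 0 to 2 counts in brain, to set the letters of their start sites beside this shared pattern. RefSeq (GRCm38.p6) gave a promoter, from 250 bases before to 50 after the start site, for 6 of the 7 markers, and Lyve1 was not matched. Each was searched on both strands for 4 motifs, none of which lies within another. These were the ETS factor motif CAGGAA, the motif of SOX factors such as SOX18, written ACAAT, the motif of nuclear receptors such as COUP-TFII, written AGGTCA, and the GATA factor motif AGATAA, and matches are in capitals below, 5′ to 3′. Prox1 (chr1:190170778-190171077, minus strand), Mmrn1 (chr6:60944067-60944366, plus strand, a start inside the annotated gene) and Stab1 (chr14:31168592-31168891, minus strand) read:
Prox1: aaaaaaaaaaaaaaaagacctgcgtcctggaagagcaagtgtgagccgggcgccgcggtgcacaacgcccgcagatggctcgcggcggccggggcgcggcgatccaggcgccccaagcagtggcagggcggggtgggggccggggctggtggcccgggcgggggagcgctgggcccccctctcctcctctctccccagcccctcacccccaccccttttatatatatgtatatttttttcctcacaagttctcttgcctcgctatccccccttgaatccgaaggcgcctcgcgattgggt
Mmrn1: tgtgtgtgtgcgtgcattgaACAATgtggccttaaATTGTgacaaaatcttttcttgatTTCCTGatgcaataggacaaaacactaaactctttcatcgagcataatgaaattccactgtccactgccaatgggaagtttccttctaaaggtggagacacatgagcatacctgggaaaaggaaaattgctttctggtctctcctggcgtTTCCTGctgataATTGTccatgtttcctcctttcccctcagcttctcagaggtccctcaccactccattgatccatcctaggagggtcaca
Stab1: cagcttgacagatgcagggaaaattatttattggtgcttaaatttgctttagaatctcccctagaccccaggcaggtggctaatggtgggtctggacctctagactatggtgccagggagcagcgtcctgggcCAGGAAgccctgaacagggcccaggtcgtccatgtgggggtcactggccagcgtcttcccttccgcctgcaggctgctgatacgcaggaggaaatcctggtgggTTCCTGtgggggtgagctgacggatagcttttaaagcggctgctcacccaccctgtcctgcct
The Prox1 window held none of the 4 motifs, and neither did that of its other listed start. The Mmrn1 window held 3 matches to the SOX motif and 2 to the ETS motif, and the Stab1 window 2 to the ETS motif. Of the 32851 promoters in the table, 30.6% held the ETS, 31.0% the SOX, 16.3% the nuclear receptor and 11.2% the GATA motif, so each of these matches is common, and a match of letters is not a binding site.

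The other genes of the lymphatic programme stood on 48 lines in 4 lists. Of 35 tested, 1 passed as higher in dura mater ECs in edgeR, 12 were higher and 1 lower at an unadjusted p under 0.05, and DESeq2 passed 11, all higher. Their median log2 fold change was 1.91, against −0.01 for all genes tested. Over all genes, 0.428% passed as higher in edgeR and 7.04% were higher at an unadjusted p under 0.05. DESeq2 passed 8.67% as higher of the genes with an adjusted p. Of the 12 higher genes, Itga9, Fat4, Ccl21a and Clca3a1 had 0 counts in both brain libraries. Among tested genes at 0 in brain with 64 or more counts in both dura mater libraries, 71.0% had an unadjusted p under 0.05. The same shares bear on each list below. Of these 48 lines, 17 had more than 7 counts in every library, which 0 of the 7 markers had.

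Transcription factors that act with or before PROX1 were counted in both tissues. Nr2f2 (COUP-TFII), the partner of PROX1 and a factor of veins, was at 15.1 and 42.9 CPM in brain ECs and 173 and 259 CPM in dura mater ECs, with no overlap (log2 fold change 2.89 ± 0.83, SE, adjusted p 0.334 in edgeR). Gata2, which is needed for lymphatic valves, was at 751 and 266 CPM in brain ECs and 446 and 528 CPM in dura mater ECs, and the groups overlapped. Nfatc1, a valve factor, overlapped as well, with 81.5 and 98.4 CPM against 109 and 79.8 CPM. Tbx1, a T-box factor upstream of Flt4, went the other way, with 132 and 126 CPM in brain ECs and 0.149 and 20.7 CPM in dura mater ECs, and so did Hhex and Maf, whose log2 fold changes were −0.93 and −2.01 (edgeR adjusted p 0.597, 1.00 and 0.995 for the 3). Maf was at 62.3 and 55.8 CPM against 0.298 and 28.7 CPM. These 3 values rested on which dura mater library was used, and without replicate 1 or 2 they were −2.77 or −8.79 for Tbx1, −0.36 or −2.38 for Hhex and −1.18 or −7.07 for Maf. Sox18 had 133 and 0 counts in brain replicates and 10 and 149 in those of the dura mater. In edgeR 0 of 7 tested genes of this list passed (1 at an unadjusted p under 0.05, and 1 in DESeq2), and their median log2 fold change was −0.06.

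Flt4 (chromosome 11, 49609263 to 49652739, plus strand), which encodes VEGFR3 and is used as a lymphatic marker in adult tissue, was at 123 and 144 CPM in brain ECs and 178 and 246 CPM in dura mater ECs, so that brain libraries with 0 counts of Prox1 and Lyve1 had 1777 and 1905 counts of Flt4. Its log2 fold change of 0.67 ± 0.53 (SE, adjusted p 0.888 in edgeR) did not pass, and its difference from those of the markers was not tested. Nrp2, the co-receptor of VEGFR3 on veins and lymphatics, was at 1.31 and 34.9 CPM against 428 and 639 CPM, with a log2 fold change of 4.87 ± 1.42 (SE, adjusted p 0.344 in edgeR). The value of Nrp2 was 3.88 without brain replicate 1 and 8.46 without brain replicate 2, and the gene passed in both of those fits, in DESeq2 (adjusted p 0.000658), without a filter on low counts, with at least 10 counts in every library and with the replicate number as a block. Calcrl and Ramp2, which together form the adrenomedullin receptor, went in opposite directions, with log2 fold changes of 2.69 and −0.79 (edgeR adjusted p 0.227 and 0.466). Of the rest, Ptpn14 and Pik3ca had log2 fold changes of 0.83 and −0.43, and the ligand VEGF-D (Figf, named after its values were seen) had 0 counts in each brain library, compared with 19 and 248 in dura mater ECs. Ccbe1 and Adamts3, which activate VEGF-C, were at 0 in every library. Vegfc itself, also named after its values were seen, had 23 and 32 counts in brain ECs against 297 and 774 in dura mater ECs. Its log2 fold change was 4.03 ± 2.56 (SE, adjusted p 0.725 in edgeR). In edgeR 0 of 9 tested genes passed (3 at an unadjusted p under 0.05, and 2 in DESeq2), with a median of 0.83.

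Valve and adhesion genes had positive log2 fold changes for 11 of 11 tested (median 5.25), of 13 listed, where 4657 of all 9347 genes tested were positive, but 0 passed in edgeR (4 at an unadjusted p under 0.05, and 3 in DESeq2). Itga9, which guides the growth of valve leaflets, had 0 counts in each brain library, compared with 126 and 83.8 CPM in dura mater ECs. Its dura mater mean was 484-fold the limit of 3 counts in brain (edgeR adjusted p 0.127). Gja1 and Gja4, connexins of valves and of arteries, had log2 fold changes of 2.83 and 0.95, and Tie1, Angpt2 and Piezo1 0.87, 1.91 and 0.48, with edgeR adjusted p from 0.466 to 1.00 for the 5. Without dura mater replicate 2 the value of Angpt2 was −0.25. Vangl2, a planar polarity gene of valves, was not tested and went the other way, with 1 and 220 counts in brain ECs and 0 in each dura mater library. Named after their values were seen, Fat4, a cadherin of lymphatic valves, had 0 counts in each brain library, compared with 888 and 428 in dura mater ECs, and Efnb2, shared with arteries, had 0 and 13 against 815 and 1418.

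Among other genes of lymphatic ECs, Fgl2 passed. Fgl2 (chromosome 5, 21372642 to 21378374, plus strand), a prothrombinase of ECs, macrophages and lymphatics, had 2 counts in each brain library, compared with 5059 and 2901 in the dura mater, or 377 and 178 CPM (log2 fold change 9.93 ± 0.94, SE, adjusted p 0.0248 in edgeR). It missed the threshold without dura mater replicate 1 (edgeR adjusted p 0.129) and in limma-voom (0.101), and its adjusted p over the other alternatives ran down to 4.14e-19 in DESeq2. Ccl21a (chromosome 4, 42772860 to 42773993, minus strand), the chemokine with which lymphatics draw in dendritic cells, had 0 counts in each brain library, compared with 883 and 3378 in dura mater ECs on 1 line and 0 throughout on its other line. The dura mater mean of Ccl21a was 629-fold the limit of 3 counts in brain (edgeR adjusted p 0.0894). It is uncertain as a gene, since Ccl21 has near-identical copies. Thy1, known from mouse lymphatic ECs and from neurons and fibroblasts, had 1 and 3 counts against 539 and 711. Cd9, a tetraspanin of many cells, was at 18.1 and 15.0 CPM against 203 and 357 CPM (log2 fold change 4.07 ± 0.68, SE, adjusted p 0.0829 in edgeR). Clca3a1, a chloride channel regulator of lymphatic ECs, had 0 counts in each brain library, compared with 161 and 374 in dura mater ECs. Cp had a log2 fold change of 0.33, Fxyd6 overlapped between the tissues, and Sned1 and Madcam1 were at 0 in every library. Ackr4, Nts and Ptx3 had at most 4 counts in any library, and Marco had 1 to 14. Pard6g had 391 and 0 counts in brain ECs against 1 and 83 in dura mater ECs, with overlap and a log2 fold change of −2.3. In all, 5 of the 8 tested genes of this list had an unadjusted p under 0.05 and 5 passed in DESeq2. Their median was 5.53 (5.20 with genes at 0 in brain given their ratio to the limit of 3 counts).

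**Figure D3:**
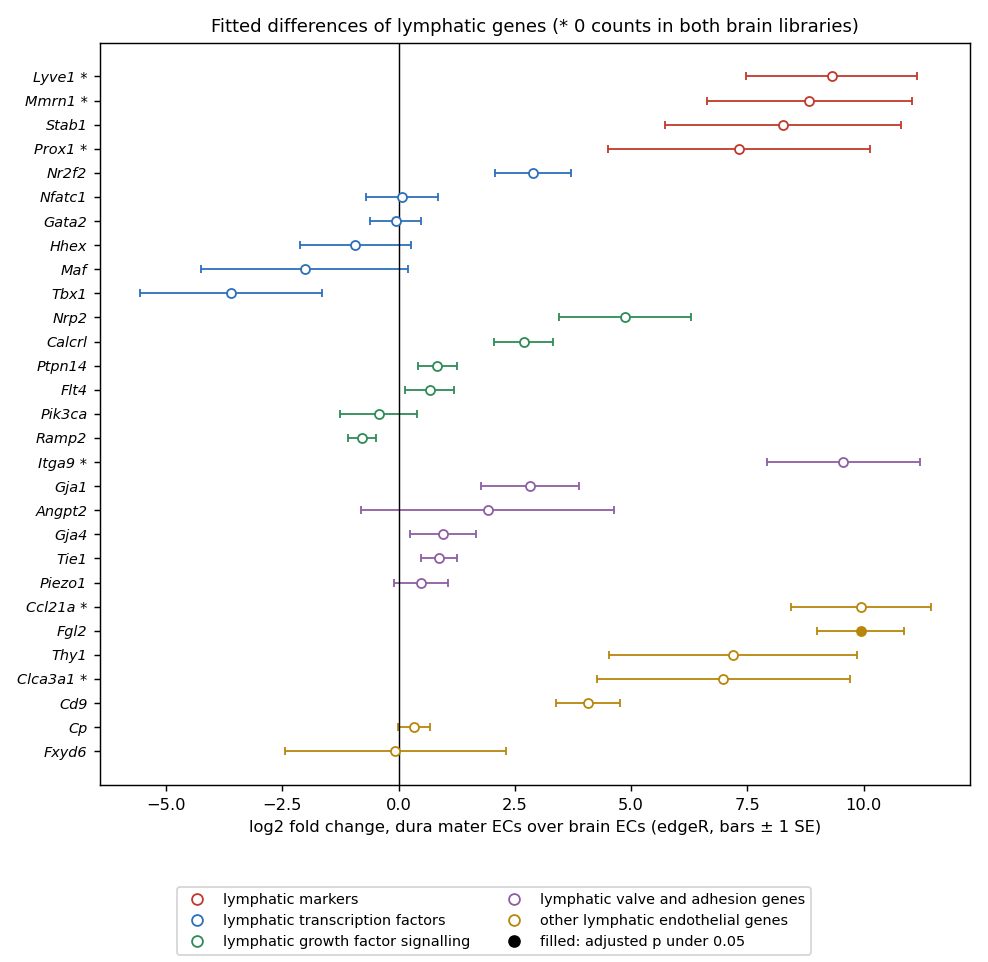
Log2 fold change of dura mater over brain ECs from edgeR, with bars of 1 SE, for the 4 lymphatic markers tested (red) and for further lymphatic genes named by rule in 4 lists. Filled points passed at an adjusted p under 0.05, and a star marks genes with 0 counts in both brain libraries, whose fitted value depends on the prior count. The markers lay between 7.32 and 9.31, the transcription factors between −3.61 and 2.89, and Fgl2 was the filled point.

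Proteins that bind the 7 markers were examined next. Of 18 listed, 10 were tested and 0 passed in edgeR (3 at an unadjusted p under 0.05, and 3 in DESeq2), with a median log2 fold change of 0.33. The receptor of podoplanin, CLEC-2 (Clec1b), was at 0 in every library. For hyaluronan, the ligand of LYVE1, Cd44 had 2 to 7 counts, Has2 0 to 2 counts, and Has1, Has3 and Hyal1 more than 7 counts in a lone dura mater library each, while Hyal2 was at 21.3 and 29.7 CPM in brain ECs and 34.7 and 139 CPM in dura mater ECs. Of the reelin receptors, Lrp8 (ApoER2) was at 365 and 253 CPM in brain ECs and 0.0746 and 10.1 CPM in the dura mater (log2 fold change −5.89 ± 1.82, SE, adjusted p 0.389 in edgeR), and Vldlr had 2, 0, 0 and 178 counts. Mmrn2, the relative of Mmrn1 found in blood ECs, was counted in both tissues, at 337 and 560 CPM against 1328 and 1379 CPM (log2 fold change 1.59 ± 0.37, SE, adjusted p 0.224 in edgeR), whereas Mmrn1 was at 0 in brain. Itgb3, an integrin subunit of platelets and ECs named after its values were seen, had 0 counts in each brain library, compared with 727 and 607 in the dura mater. Factor V (F5), Sparc and Chid1, which bind multimerin-1 or stabilin-1, overlapped between the tissues.

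Markers of cells that share these genes were read in the same libraries. Blood endothelial markers were high in all 4 libraries, with 11580 and 14090 summed CPM in brain ECs against 8785 and 10530 for the dura mater, and 12 of 12 were counted throughout. One of them passed, the tight junction gene Cldn5, which was lower in the dura mater (log2 fold change −2.52 ± 0.33, SE, adjusted p 0.0388 in edgeR). Cldn5 missed the threshold without dura mater replicate 1 or 2 (edgeR adjusted p 0.0634 and 0.0668). The venous list held 1415 and 1010 CPM in brain ECs against 6603 and 5633 for the dura mater, and Selp and Lrg1 passed as higher among 8 tested, though Selp did not in limma-voom (adjusted p 0.098). Of the 8, 7 had positive log2 fold changes, down to 0.52 for Ephb4. Il1r1 went the other way without overlap, at 110 and 133 CPM in brain ECs against 14.32 and 32.65 CPM in dura mater ECs. Its log2 fold change was −2.36 (edgeR adjusted p 0.47). The sinusoidal list held 8.28 and 36.5 CPM against 355 and 347 CPM, with Fcgr2b, Clec4g and Cd209b at 0 in every library, 2 genes tested (Gpr182, which lymphatic ECs also use, and Ehd3) and 0 passing in edgeR (0 at an unadjusted p under 0.05, and 0 in DESeq2). Its members Oit3 and Dnase1l3 were counted in dura mater replicate 2, with 66 and 218 counts against 0 to 2 elsewhere, as Stab2 was.

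The macrophage list overlapped between tissues, with 51.7 and 113 CPM in brain ECs and 112 and 50.9 CPM in dura mater ECs. Of its members Cd163 was at 0 in every library, and Ptprc, Adgre1, Aif1, Folr2 and Cx3cr1 had at most 5 counts in any. Csf1r had 4 and 646 counts in brain ECs against 28 and 9 in the dura mater. C1qa had 436 and 1 against 2 and 25, and C1qb 289 and 4 against 2 and 0. Others were counted in the dura mater, where Fcer1g had 610 and 173 counts (6 and 17 in brain), C1qc 291 and 2 (0 and 797 in brain) and Mrc1, as given above, 172 in replicate 2. Of 15 genes, 5 were tested and 0 passed in edgeR (0 at an unadjusted p under 0.05, and 1, Cd68, in DESeq2, with 4 and 3 counts against 550 and 441). The fibroblast and meningeal list, which bears on Pdpn, held 8.21 and 52.3 CPM against 468 and 383 CPM. Dcn and Col1a2 were counted in both dura mater libraries (1184 and 1664, and 1135 and 1913), while Pdgfra, Lum and Cdh11 had 0 to 4 counts in each library. In edgeR 0 of 6 tested genes passed (2 at an unadjusted p under 0.05, and 5 in DESeq2). The choroid plexus and ependymal list moved with tissue too, at 0 and 3.48 CPM against 1530 and 833 CPM, nearly all of it Ttr (0 and 45 counts against 19738 and 13352). Its part in the markers' values, like that of fibroblasts and of sinusoidal and venous ECs, was not tested.

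The platelet list, which bears on Mmrn1, held 130 and 0.680 CPM in brain ECs and 121 and 33.3 CPM in dura mater ECs. Its markers Gp9, Gp1ba, Gp5 and Treml1 were at 0 in every library. The sums came mostly from Gp1bb (1210 and 4 counts in brain ECs against 1133 and 278), Itga2b (395 and 0 against 487 and 0) and Ppbp (275 and 0 against 0 and 190). The neuron list, which bears on Prox1 and Reln, held 142 and 187 CPM against 218 and 163 CPM, of which Stmn2 was counted in every library, and Rbfox3, Gad1 and Nefl had 0 to 2 counts. Gad2 (0 and 0 counts in brain ECs against 166 and 96) and Tubb3 (10 and 2 against 111 and 77) were higher in both dura mater libraries, and Syt1 and Slc17a7 had 170 and 595 counts in dura mater replicate 1 and 0 and 2 in replicate 2. The bone cell list held 148 and 105 CPM against 166 and 135 CPM, with Bglap, Bglap2, Sp7, Dmp1 and Phex at 0 in every library and Alpl, also an EC gene, the one tested. Ibsp had 181 and 11 counts in the dura mater and 0 in each brain library, and Runx2 had 820 counts in dura mater replicate 1 and 0 to 1 elsewhere. In edgeR 0 genes of these 3 lists passed, 0 had an unadjusted p under 0.05, and DESeq2 passed 0. The part of macrophages, platelets, neurons and bone cells in the markers' values was not tested.

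**Figure D4:**
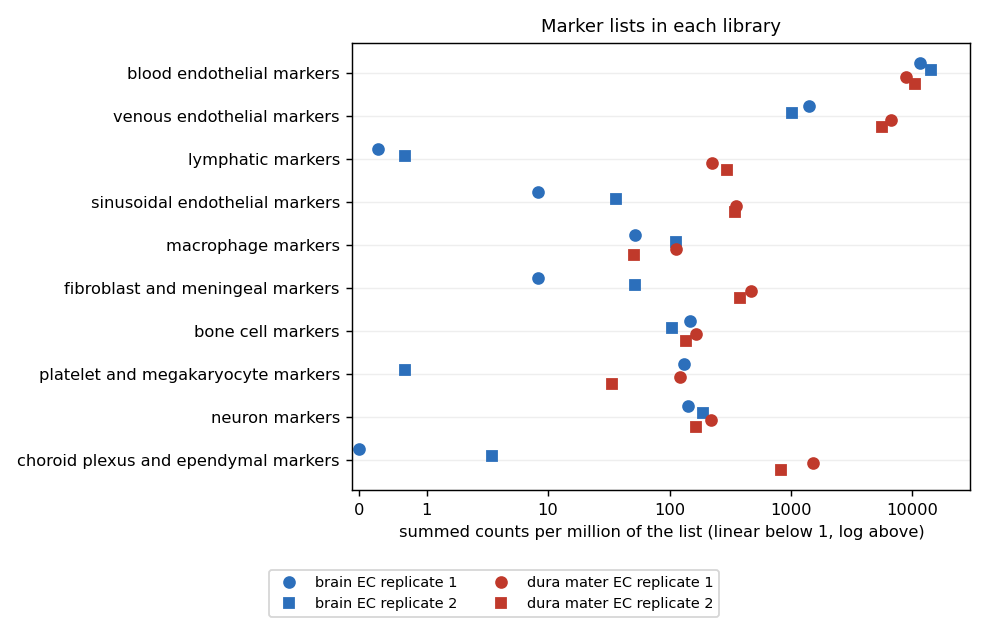
Summed CPM (linear below 1, log above) of each marker list in the 2 brain EC libraries (blue) and the 2 dura mater EC libraries (red). The 7 lymphatic markers stood at 0.276 and 0.680 CPM in brain and 222 and 299 CPM in dura mater ECs, and the venous, sinusoidal, fibroblast and choroid plexus lists were also higher in both dura mater libraries, while the macrophage list overlapped.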

How the data were processed

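RNA of sorted ECs was sequenced in 4 libraries with a Lexogen QuantSeq kit, and the authors deposited raw counts, a whole number per gene symbol and library, for 23282 entries. The methods of the study name TopHat and cufflinks, and the submitters' processing notes name Bowtie2, edgeR and mm10 (GRCm38). The counter, the annotation, the use of strand and of molecular identifiers are not given in the sources used here. Levels were compared within genes, not between them.

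Groups came from sample titles. Counts were tested with edgeR 4.0.16 in R 4.3.3 (quasi-likelihood test, two-sided, TMM scaling, filterByExpr, tissue as the only term, Benjamini-Hochberg over 9347 genes, threshold 0.05, prior count 2), in place of cufflinks, which needs alignments. For the SE, the size of the fold change (log2) was divided by √F. Alternatives were DESeq2 1.42.0, limma-voom (limma 3.58.1), other scalings and filters, a replicate block, a prior count of 0.5, a fit without each library's 10 most counted genes, and each library left out. The fits were also run on simulated data. With the common biological coefficient of variation of these data, 1.39, edgeR called 0 of the 200 altered genes there. DESeq2 called 13 of the 200 at a log2 difference of 3, beside 235 false calls. At a log2 difference of 10 it called 182, beside 270 false calls. With a coefficient of 0.2, edgeR called all 200 at either difference, beside 12 false calls. Whether the DESeq2 calls of the markers were false was not tested.

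The markers, lists and tests were chosen with earlier results of these data known. Genes were named if they passed, or as the up to 6 of a list with the largest mean CPM, and further ones, markers at or near 0 among them, after their values were seen. For each tested marker the 3 nearest genes were named too. Vegfd was matched as Figf, and Clca1 was dropped beside Clca3a1. Positions are from GENCODE M21.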

Additional observations from a re-analysis of the deposited data

How the results depend on the processing

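The log2 fold changes of Lyve1, Prox1, Mmrn1 and Stab1 were recomputed under the alternatives that kept them, which gave 52 values for these genes together. All of these values stayed positive, 40 kept their side of the threshold and 12 passed it. The count of markers that passed, 0 in edgeR, was 4 in DESeq2, 2 without a filter on low counts, and 0 to 3 when a library was left out. With at least 10 counts in every library no marker was left. Among further lymphatic genes and binding partners 1 passed, against 14 in DESeq2, 7 without a filter, 3 with at least 10 counts in every library, 7 with the replicate block, and 2 to 12 when a library was left out (8 and 12 without brain replicate 1 or 2, 2 without either dura mater library). Over all genes 57 passed, against 1259, 326, 141 and 224 under those settings, and 80 to 740 when a library was left out (740 and 701 without brain replicate 1 or 2, where the brain is 1 library taken to vary like the dura mater pair, and 97 without dura mater replicate 2). The median log2 fold change of all genes moved from −0.01 to 1.03 and 0.95 without brain replicate 1 or 2, −0.19 and 0.14 without dura mater replicate 2 or 1, 0.28 in limma-voom, 0.27 without a filter, 0.25 with the block, 0.22 in DESeq2 and 0.13 with upper-quartile scaling. Of further lymphatic genes and partners, Nrp2, Mmrn2, Ccl21a, Lrp8, Fgl2, Cd9 and Itga9 were the 7 that passed without a filter, and the same 7 passed with the block.

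Whether same-numbered libraries were paired is not stated. Across genes, they deviated from their tissue means with a correlation of −0.0208, which cannot show the absence of pairing, given the wide spread between replicates. The replicate block changed no call of a marker.

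Some log2 fold changes turned sign, and the cause was not tested. Gata2 was 0.10 in limma-voom, 0.054 with upper-quartile scaling, 0.0011 with at least 10 counts in every library, 0.12 with the block and −0.69 (without brain replicate 2) to 0.82 (without brain replicate 1) when a library was left out. Nfatc1 was −0.025 in DESeq2, −0.0045 with RLE scaling and −0.31 to 0.25 when a library was left out. Fxyd6 was 4.97 in limma-voom, 0.12 with upper-quartile and 0.010 with library-size scaling, 3.65 with the block and −1.13 (without brain replicate 1) to 9.04 (without brain replicate 2) when a library was left out. Leaving out a library gave −0.25 (without dura mater replicate 2) to 8.88 for Angpt2, −0.13 (without dura mater replicate 2) to 0.55 for Chid1 and −0.66 (without dura mater replicate 1) to 1.15 for F5. With 2 libraries per tissue and counts this far apart, a marker at 0 in brain was not detected rather than shown to be absent. Replicates could differ from near 0 to high counts. Of 23282 entries, 3210 had more than 63 counts in 1 dura mater library and 7 or fewer in the other. Fxyd6 had 0 and 2017 counts in brain replicates 1 and 2. The limit of 3 counts and the ratios to it therefore do not bound the level in brain ECs.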
